A study of Mus musculus with 6 samples.

Results

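Cd36 and 7 other genes of lipid uptake and binding were examined in tumor-associated macrophages (TAMs) of mice with and without a myeloid deletion of Pdcd1, the gene of the inhibitory receptor PD-1. The 8 genes, Cd36, Msr1, Marco, Olr1, Scarb1, Cd5l, Vldlr and Fabp4, were listed by symbol and matched to their Ensembl identifiers, and all 8 were found among the 26637 genes that had at least 1 count. The question was whether Cd36 was the only gene of this group that was higher after the deletion. Of the 8, Cd5l encodes a secreted protein and Fabp4 a cytosolic one, so 6 of them are receptors at the cell surface.

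RNA-seq was done on CD11b+F4/80+ TAMs from tumors labelled M17, a fibrosarcoma line that the study's methods call MC17-51, collected on day 15 after implantation into mice 8 to 12 weeks old. The control genotype, called the controls below, was Pdcd1f/f, in which both Pdcd1 alleles carry loxP sites and no Cre is named, and the other genotype was Pdcd1f/fLysMcre, in which Cre under the lysozyme promoter acts in myeloid cells. Its libraries are called the deleted libraries below. There were 3 libraries per genotype, with 41833823 to 51417209 counts each. LysMcre places Cre in the Lyz2 gene, so the genotypes differ at Lyz2 as well as at Pdcd1, and effects of these 2 differences cannot be told apart. The labels do not say which mice contributed to a library, and p-values measure the spread between these libraries.

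Macrophages take up lipoproteins and fatty acids through scavenger receptors, which bind oxidized or acetylated low-density lipoprotein (LDL), dying cells and other polyanionic ligands. Most of these receptors are not shut down when the cell fills with cholesterol, which is how macrophages become foam cells. Inside the cell, fatty acid binding proteins carry the lipids to storage, oxidation or nuclear receptors, and in tumors lipid-laden macrophages are a recognized TAM state.

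The labels were checked first. Lyz2 was at 4394 to 4760 CPM (counts relative to the library total) in the Pdcd1f/f libraries and at 8.58 to 9.87 CPM in the Pdcd1f/fLysMcre libraries. Pdcd1 had 7 to 16 counts in every library of both genotypes, too few to check its deletion. Pdcd1f/f replicate 1 and Pdcd1f/fLysMcre replicate 2 stood apart from the other 4 libraries on the second principal component, which held 18.9% of the variance. Each gene's deviation from its genotype's mean was also compared with its GC content. Spearman's r was −0.58 and −0.49 in these 2 libraries, and 0.12 to 0.51 in the other 4. Some fits below use GC and length offsets for such trends. Transcripts of both sexes were counted in all 6 libraries, and their mix differed between the genotypes: the sum of 4 Y-linked genes was 32.7 to 40.5 CPM in Pdcd1f/f and 133 to 153 CPM in Pdcd1f/fLysMcre, while Xist, the transcript of the inactive X chromosome, was at 366 to 560 CPM and 181 to 279 CPM. Genotype and sex mix therefore cannot be told apart for any gene below. The 6 macrophage markers summed to 3862 to 4173 CPM in Pdcd1f/f and to 3572 to 3626 CPM in Pdcd1f/fLysMcre, so every deleted library was below every control. Of the 6, Adgre1 (log2 fold change −0.38), Csf1r (−0.32) and Mertk (−0.61) were lower in Pdcd1f/fLysMcre TAMs, beside 3.01% of all genes tested. Itgam, Fcgr1 and Cd14 did not pass the test. With GC and length offsets Cd14 was higher past the threshold (0.24, adjusted p = 0.00021, and 0.00031 with a replicate block) and Fcgr1 lower (−0.15, adjusted p = 0.013). Fcgr1 was also lower past the threshold with DESeq2 and Benjamini-Hochberg adjustment (adjusted p = 0.017), with all genes of at least 1 count (0.046) and without Pdcd1f/f replicate 1 (0.0089). Without both libraries that stood apart, Fcgr1 (−0.25, adjusted p = 0.00067) and Itgam (−0.18, adjusted p = 0.0088) were lower past the threshold. With 1 library left out Mertk passed in 6 of 6 fits, Adgre1 in 4 (not without Pdcd1f/f replicate 2 or Pdcd1f/fLysMcre replicate 1, adjusted p up to 0.051) and Csf1r in 2 (without Pdcd1f/f replicate 1 or Pdcd1f/fLysMcre replicate 3, otherwise up to 0.17). The part of this difference in the values below was not tested.

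Cd36 was not alone in rising. Of the 8 genes 7 had enough counts for the test, and 3 of these 7 passed an adjusted p threshold of 0.05 in edgeR's quasi-likelihood test, against 5.43% of all 14469 genes tested. Cd36 and Olr1 were higher in Pdcd1f/fLysMcre TAMs, a direction called in 2.42% of all genes, and Fabp4 was lower, a direction called in 3.01%. Msr1, Scarb1, Cd5l and Vldlr did not pass the threshold, and Marco was too low to be tested. The libraries of the genotypes did not overlap for the same 3 genes, against 27.5% of all genes tested. In order of adjusted p among all genes tested, Cd36 was at rank 45, Olr1 at rank 80 and Fabp4 at rank 421.

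**Figure D1:**
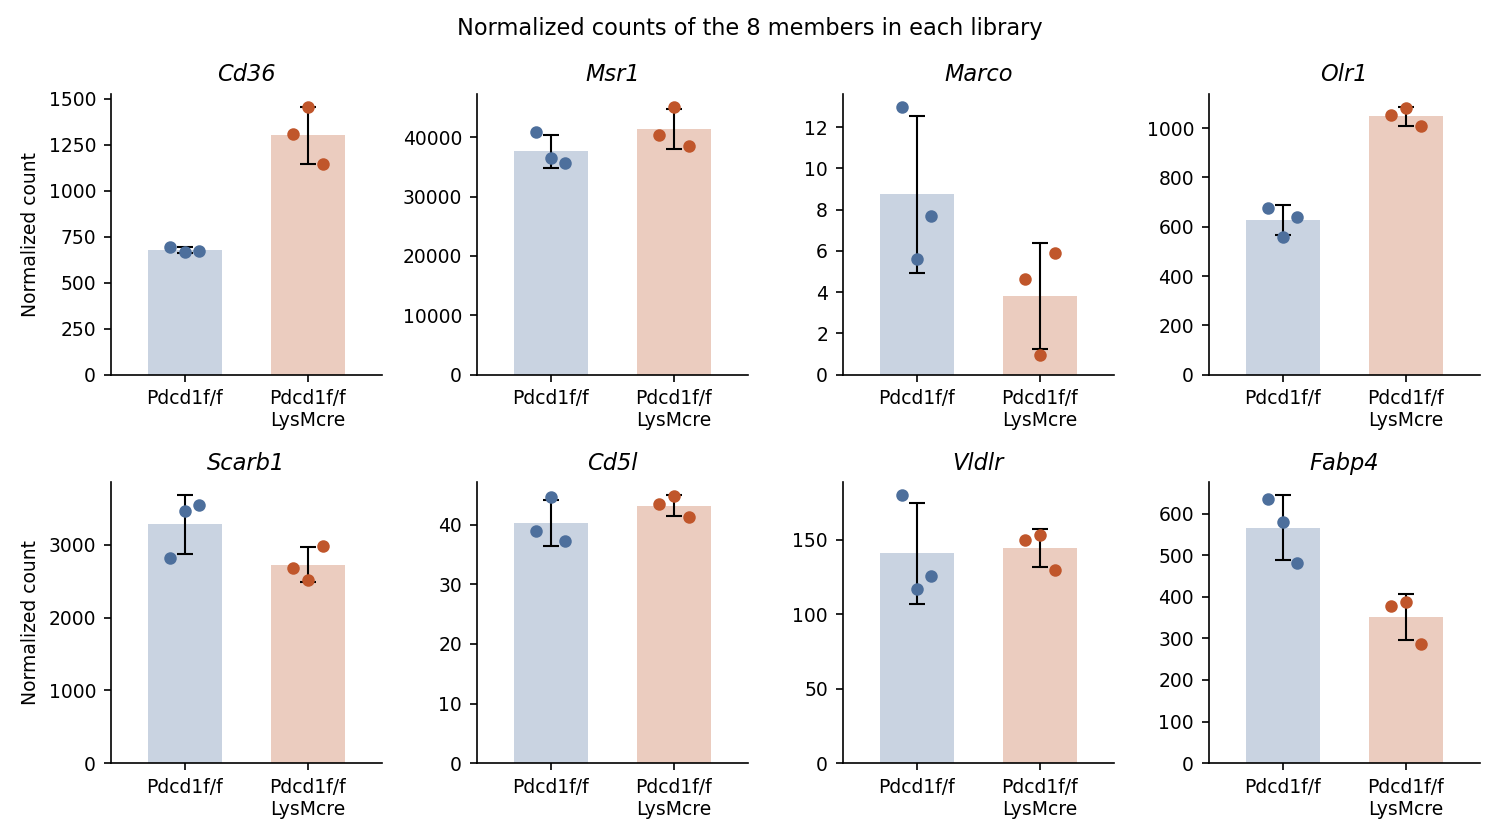
Normalized counts (counts divided by a size factor per library) of the 8 genes, each panel with its own linear axis; points are libraries, bars are means and error bars are SD over 3 libraries. The Pdcd1f/fLysMcre libraries lie above all Pdcd1f/f libraries for Cd36 and Olr1 and below them for Fabp4, and the genotypes overlap for the other 5 genes.

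Cd36 encodes a class B scavenger receptor that binds oxidized LDL and takes up long-chain fatty acids. Its normalized counts were 696, 667 and 672 in the controls and 1306, 1452 and 1143 in the deleted libraries. The control libraries were close to each other, the deleted ones were more spread, and the lowest of these was far above the highest control. The mean rose from 679 ± 15.7 to 1300.1 ± 155 normalized counts (SD over 3 libraries), and the log2 fold change was 0.94 ± 0.10 (SE, 95% confidence interval 0.73 to 1.15, adjusted p = 0.00049 in edgeR). Without the 2 libraries that stood apart the log2 fold change was 0.87 (adjusted p = 1.7e-06).

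Olr1 encodes LOX-1, the lectin-like receptor for oxidized LDL. Its normalized counts were 677, 559 and 641 in the control libraries and 1053, 1083 and 1008 in TAMs with the deletion. Here too every deleted library was above every control, and the deleted libraries lay close together. The log2 fold change was 0.75 ± 0.09 (SE, 95% confidence interval 0.54 to 0.95, adjusted p = 0.0013), and without the 2 libraries that stood apart it was 0.78 (adjusted p = 8.5e-06).

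Cd36 lies on chromosome 5 (GRCm38, chr5:17781690-17888801, minus strand) and Olr1 on chromosome 6 (chr6:129485244-129507165, minus strand), and neither has another annotated gene overlapping it. Promoter windows from RefSeq (GRCm38.p6), from 250 bases before to 50 after a start, were used for 5 of the 8 genes: Cd36, Olr1, Marco, Cd5l and Vldlr. The 250 bases before the start are shown for Cd36 and Olr1, the 2 genes that were higher after the deletion, 5′ to 3′ on the gene's strand, in lower case with motif matches in capitals. The Cd36 window is at chr5:17835897-17836146, before a start inside the annotated gene span, and the Olr1 window is at chr6:129507166-129507415.
Cd36: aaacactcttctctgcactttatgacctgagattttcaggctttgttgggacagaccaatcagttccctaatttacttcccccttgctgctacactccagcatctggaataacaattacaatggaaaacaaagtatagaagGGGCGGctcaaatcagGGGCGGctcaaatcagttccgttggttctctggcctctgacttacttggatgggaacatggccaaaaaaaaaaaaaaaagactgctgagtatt
Olr1: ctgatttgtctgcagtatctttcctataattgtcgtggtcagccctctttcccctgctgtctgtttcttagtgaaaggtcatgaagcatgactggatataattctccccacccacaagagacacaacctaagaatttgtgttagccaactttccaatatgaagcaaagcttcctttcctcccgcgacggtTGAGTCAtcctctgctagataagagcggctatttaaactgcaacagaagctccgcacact
The capitals mark GC boxes (GGGCGG) in Cd36 and an AP-1 site (TGAGTCA) in Olr1, so the windows share none of the matches found.

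The windows were searched on both strands for 7 letter patterns. The GC box matched at 2 places in the Cd36 window, with first bases at −109 and −93 from the start, in a unit of 16 bases that is repeated in tandem. GC boxes were present in 35.7% of all 32851 promoter windows. The AP-1 pattern (TGANTCA) matched in the Olr1 window with its first base at −60, and 7.81% of all windows held it. The other 5 patterns had no match in either window: the direct-repeat PPAR response element with a 1-base spacer (in 0.0396% of all windows), the ETS-IRF composite element (2.72%), an NRF2 core (TGACNNNGC, 12.4%), a TATA box (TATAAA, 13.6%) and an NF-kB site (0.411%). Among the windows of Marco, Cd5l and Vldlr, 1 of the Vldlr windows held a GC box at −42 on the opposite strand. None of the matches overlapped another pattern, and whether any factor binds there was not measured. Cd36 has 6 annotated transcript starts and Olr1 has 3, and sequence outside the window of each was not searched. Which start TAMs use was not tested. A pattern as rare as the PPAR element is absent from nearly every window, so its absence here says little.

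Fabp4 encodes the fatty acid binding protein of adipocytes and macrophages, also called aP2. Its normalized counts were 635, 580 and 481 in control TAMs and 378, 387 and 287 in Pdcd1f/fLysMcre libraries. The genotypes did not overlap, but the gap between the lowest control and the highest deleted library was smaller than the spread among the controls. The log2 fold change was −0.69 ± 0.14 (SE, 95% confidence interval −1.001 to −0.37, adjusted p = 0.020). This call was lost when 1 library was left out in 3 of 6 cases: the adjusted p was 0.097 without Pdcd1f/f replicate 2, 0.074 without Pdcd1f/fLysMcre replicate 1 and 0.051 without Pdcd1f/fLysMcre replicate 3.

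Msr1 and Marco are class A scavenger receptors for modified LDL and bacterial surfaces. Msr1 was the most abundant gene of the group, with normalized counts of 40800, 36568 and 35562 in controls and 40426, 45093 and 38471 in the deleted libraries. The libraries overlapped, and the log2 fold change of 0.14 ± 0.08 (SE, 95% confidence interval −0.04 to 0.31) did not pass the threshold (adjusted p = 0.31). The interval leaves out a rise of the size seen for Cd36. Without the 2 libraries that stood apart, Msr1 passed with a log2 fold change of 0.13 (adjusted p = 0.044). With GC and length offsets the value of Msr1 was 0.029 (adjusted p = 0.67). With 1 library left out it ranged from 0.070 to 0.19 and did not pass in any fit (lowest adjusted p 0.074). Marco had 14, 5 and 7 counts in the control libraries and 5, 1 and 6 counts in the deleted libraries, and a difference was not detectable at this depth.

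Scarb1 encodes SR-BI, the receptor for high-density lipoprotein and a class B relative of Cd36. Its normalized counts were 2819, 3462 and 3551 in the control libraries and 2680, 2510 and 2981 in TAMs with the deletion. The lowest control, replicate 1, fell within the range of the deleted libraries. The log2 fold change was −0.26 ± 0.10 (SE) with an adjusted p of 0.14. Without Pdcd1f/f replicate 1 it was −0.37 (adjusted p = 0.0069), and without both libraries that stood apart it was −0.31 (adjusted p = 0.0014).

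Vldlr, the receptor for very-low-density lipoprotein, had normalized counts of 180, 117 and 126 in control TAMs and 150, 153 and 130 in Pdcd1f/fLysMcre libraries. The deleted libraries lay within the range of the controls, and the log2 fold change was 0.03 ± 0.18 (SE, 95% confidence interval −0.37 to 0.43, adjusted p = 0.94). Its sign turned when any of 3 libraries was left out. Cd5l, a macrophage-secreted protein also called AIM that is taken up through CD36, had 39.0, 44.7 and 37.2 normalized counts against 43.5, 44.8 and 41.3. These ranges overlapped as well, and the log2 fold change was 0.10 ± 0.23 (SE, 95% confidence interval −0.40 to 0.60, adjusted p = 0.82). With 1 library left out the Cd5l value ranged from 0.049 to 0.18 and did not pass in any fit (lowest adjusted p 0.80).

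**Figure D2:**
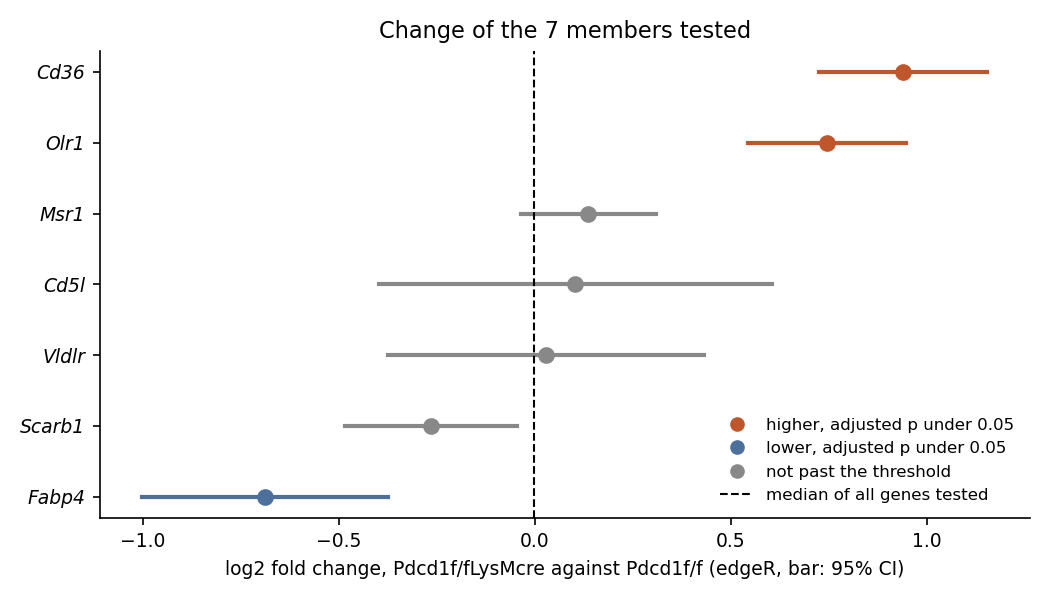
Log2 fold change of the 7 genes tested, Pdcd1f/fLysMcre against Pdcd1f/f, from edgeR; bars are 95% confidence intervals and the dashed line is the median of all genes tested (−0.0026). The intervals of Cd36 (0.73 to 1.15) and Olr1 (0.54 to 0.95) overlap each other and lie above those of the other 5 genes except for the upper end of Cd5l at 0.60.

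The other 6 genes lie on 5 chromosomes in GRCm38. Msr1 is at chr8:39581685-39642673, Marco at chr1:120474538-120505024, Scarb1 at chr5:125277087-125341094 and Fabp4 at chr3:10204088-10208576, all on the minus strand. Cd5l is at chr3:87357881-87371073 and Vldlr at chr19:27216484-27254231, both on the plus strand. Gm42633, on the same strand, overlaps the span of Scarb1 with an exonic overlap of 0 bp, and no other annotated gene overlaps any of the 8.

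Per kilobase of exon, in RPKM computed from the counts, Msr1 was far above the rest of the group. In Pdcd1f/f TAMs its level was 126 ± 9.12 RPKM (SD, n = 3), followed by Scarb1 at 8.17 ± 1.01, Cd36 at 4.004 ± 0.083 and Olr1 at 3.71 ± 0.35. Fabp4 followed at 2.67 ± 0.37 RPKM, and Cd5l (0.419), Vldlr (0.297) and Marco (0.0961) were under 1 RPKM. The length used for Fabp4, 4489 bp of merged exons, covers its whole annotated span, and its place in the order depends on that length. In this order only Cd36 and Olr1 overlapped as neighbours. In Pdcd1f/fLysMcre TAMs Cd36, at 7.68 ± 0.91 RPKM, was next after Msr1 (138 ± 11.3), with Scarb1 at 6.80 ± 0.60 and Olr1 at 6.22 ± 0.22. There the libraries of Cd36 and Scarb1 overlapped, as did those of Scarb1 and Olr1, and Fabp4 was at 1.66 ± 0.26 RPKM.

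**Figure D3:**
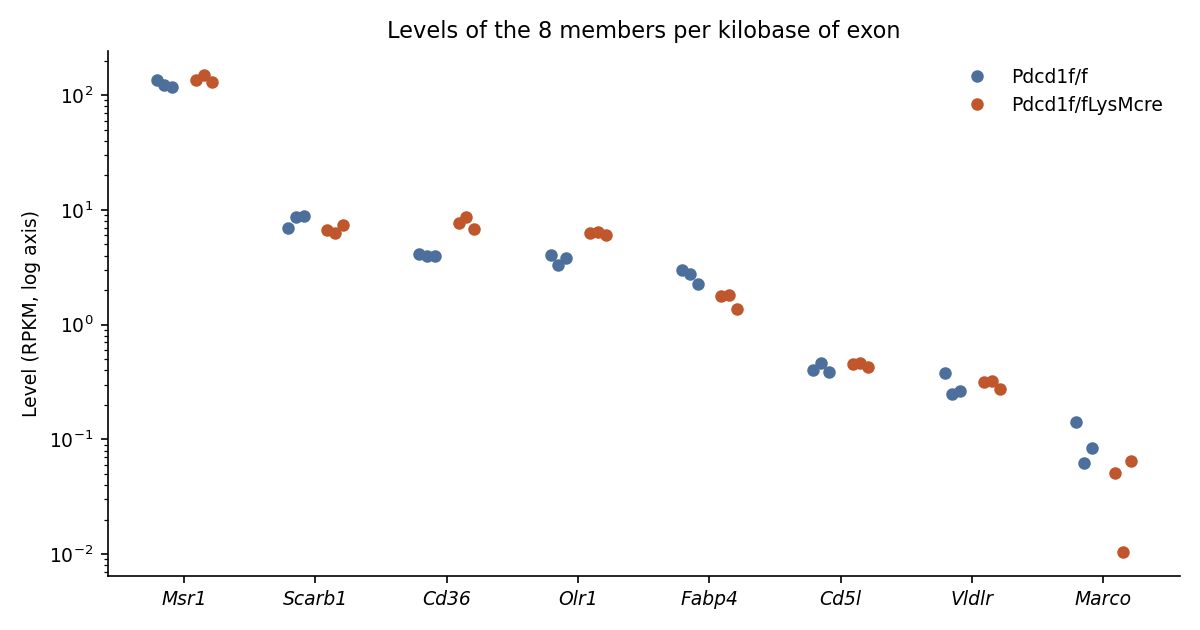
Level of the 8 genes in RPKM on a log axis, ordered by their mean in Pdcd1f/f TAMs. Each point is 1 library, and the length used for Fabp4 covers its whole annotated span. Msr1 is above 118 RPKM in every library, Scarb1, Cd36, Olr1 and Fabp4 lie between 1.36 and 8.83 RPKM, and Cd5l, Vldlr and Marco lie below 0.47 RPKM.

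The ratio of Cd36 to each other gene within a library does not depend on how libraries are scaled. On the log2 scale the ratio of Cd36 to Olr1 was 0.04, 0.26 and 0.07 in Pdcd1f/f TAMs and 0.31, 0.42 and 0.18 in Pdcd1f/fLysMcre TAMs. These ranges overlapped, and the difference between genotypes was 0.18 ± 0.10 (SE, exact permutation p = 0.20). For the other 6 genes the ratio was higher in every deleted library than in every control. The difference was 0.80 ± 0.06 for Msr1, 0.83 ± 0.11 for Cd5l, 0.88 ± 0.18 for Vldlr, 1.19 ± 0.21 for Scarb1 and 1.62 ± 0.12 for Fabp4. The ratio to Marco, 2.22 ± 0.82, rests on 1 to 14 counts of Marco. The two-sided exact permutation p of each of these 6 was 0.10, the smallest that 3 against 3 libraries allow. After adjustment over the 7 ratios it was 0.12. Cd36 itself separated the genotypes, so its ratio to a gene that changed little or fell would be likely to separate them too. How many of all genes would give such a ratio was not tested.

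**Figure D4:**
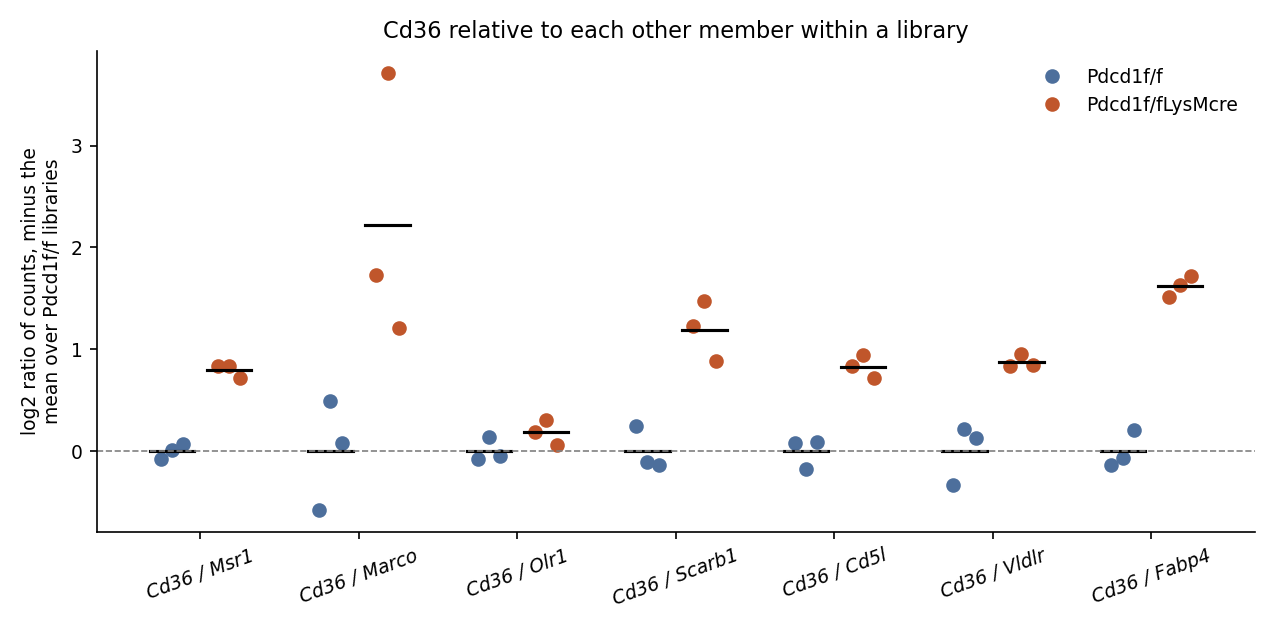
Log2 ratio of Cd36 counts to the counts of each other gene within a library, minus the mean of the Pdcd1f/f libraries; points are libraries and black lines are means over 3 libraries. The deleted libraries are above the controls in 6 of 7 ratios, and in the ratio to Olr1 the genotypes overlap. Cd36 itself did not overlap between the genotypes.

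Other cells that express these genes were checked by their markers. Calls in each marker list below stand beside 2.42% of all genes called higher and 3.01% called lower. The study's methods describe the TAM sort for Shp2f/f and Shp2f/fLysMCre mice. It kept live cells positive for CD45, CD11b and F4/80 and negative for Ly6G. Such a gate would remove neutrophils, lymphocytes without CD11b, and the CD45-negative endothelial cells, adipocytes and stromal cells. It would also remove platelets that are not bound to a sorted cell. Endothelial cells and platelets also express CD36. Of 5 platelet and megakaryocyte markers, Ppbp (log2 fold change 0.83, adjusted p = 0.00020) and Itgb3 (0.36, adjusted p = 0.019) were higher in Pdcd1f/fLysMcre TAMs, and the summed level of the list was 121.5 to 122.4 CPM in controls and 191.5 to 220.9 CPM in deleted libraries. Ppbp alone was at 91.7 to 95.5 CPM in controls and 156 to 184 CPM in deleted libraries. With 1 library left out in turn Ppbp passed in 6 of 6 fits and Itgb3 in 2, failing without Pdcd1f/f replicate 2 or any 1 Pdcd1f/fLysMcre library (adjusted p up to 0.12). Of the other 3, Itga2b, the platelet integrin subunit IIb, was detected in every library, with 15, 20 and 27 counts in controls and 21, 17 and 13 in deleted libraries, and did not pass the test (−0.42, adjusted p = 0.53). Gp1bb had no count in any library and Gp9 had 1 count in 1 library. Of 7 endothelial markers 5 were tested: Pecam1 was lower (−0.62, adjusted p = 0.0034), Kdr and Cdh5 were at 0.02 and −0.01, and the list's sum was 40.1 to 42.8 CPM against 32.7 to 35.8 CPM. Pecam1 passed in 6 of 6 fits with 1 library left out. The part of these cells in the values of Cd36 was not tested.

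Of 6 adipocyte markers, Lep, Cidec and Cfd had no count in any library, Adipoq and Plin1 had 1 count each in 1 library, and Retn had 3 to 12 counts. The summed level was 0.0694 to 0.285 CPM in controls and 0.0606 to 0.104 CPM in deleted libraries, beside a Fabp4 level of 11.97 ± 1.66 and 7.44 ± 1.17 CPM. Of 5 markers of resident-like macrophages, which are known sources of Cd5l, Lyve1 (−0.92, adjusted p = 0.0060) and Folr2 (−0.38, adjusted p = 0.0095) were lower, Clec4f had no count in any library, and Timd4 and Vsig4 had at most 7 counts per library. The list's sum was 158 to 177 CPM in controls and 122 to 132 CPM in deleted libraries. Lyve1 passed in 6 of 6 fits with 1 library left out and Folr2 in 4, failing without Pdcd1f/f replicate 2 or Pdcd1f/fLysMcre replicate 1 (adjusted p up to 0.084). In sorted bulk RNA, fewer cells of a kind and less RNA per cell cannot be told apart.

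Further cell types were checked in the same way. Of 6 neutrophil markers 4 were tested and Mmp8 was lower (−0.48, adjusted p = 0.0039, and past the threshold in 6 of 6 fits with 1 library left out). S100a8 (0.23, adjusted p = 0.22 over all libraries) was higher past the threshold without Pdcd1f/f replicate 1 (0.36, adjusted p = 0.0091) and without both libraries that stood apart (0.33, adjusted p = 0.0030). Retnlg (−0.95, adjusted p = 0.11 over all libraries) went the other way. It was lower past the threshold with GC and length offsets (−1.01, adjusted p = 0.039) and with offsets and block (−1.03, adjusted p = 0.039). Ly6g had at most 3 counts per library, and the neutrophil sum was 85.2 to 92.3 CPM in controls and 77.3 to 83.8 CPM in deleted libraries, without overlap. Of 6 stromal markers, all tested, Col1a2 was lower (−1.001, adjusted p = 0.012), but not without Pdcd1f/f replicate 3 or Pdcd1f/fLysMcre replicate 1 (adjusted p up to 0.059), and the sums overlapped (65.3 to 70.3 and 62.0 to 68.5 CPM). Col1a1 (−0.78, adjusted p = 0.15 over all libraries) was lower past the threshold in some alternatives, such as the replicate block (−0.81, adjusted p = 0.031). It was also past the threshold without Pdcd1f/f replicate 1 (−1.003, adjusted p = 0.022) and without both libraries that stood apart (−1.05, adjusted p = 0.014). Of 5 dendritic cell markers Flt3 (0.67, adjusted p = 0.14), Zbtb46 (0.69, adjusted p = 0.12) and Ccr7 (0.03, adjusted p = 0.93) were tested in edgeR and did not pass, though every deleted library was above every control for Flt3. The sums were 4.71 to 6.34 CPM and 6.04 to 7.62 CPM, and Flt3 was past the threshold without Pdcd1f/f replicate 1 (0.88, adjusted p = 0.035). Zbtb46 passed without both libraries that stood apart (0.76, adjusted p = 0.038) and with offsets and block (0.70, adjusted p = 0.036). None of 6 lymphocyte markers had enough counts to test, and they summed to 0.162 to 0.627 CPM and 0.121 to 0.292 CPM. The part of these cells in the members' values was not tested.

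Other genes of these pathways were grouped in 4 lists with 62 genes, of which 57 were tested, 3 were higher and 8 were lower in Pdcd1f/fLysMcre TAMs, beside 2.42% higher and 3.01% lower over all genes tested. The number of calls differed between fits, and the share of all genes called in each is given in brackets beside it (5.43% for these 11 calls). There were 22 with GC and length offsets (18.7%), 23 with the offsets and a replicate block (19.7%), 18 with all genes of at least 1 count (7.32%), 17 with DESeq2 and Storey q-values (15.3%), and 27 without both libraries that stood apart (26.2%). With 1 library left out there were 4 without Pdcd1f/f replicate 2 (1.51%) or without Pdcd1f/fLysMcre replicate 1 (1.51%), 7 without Pdcd1f/f replicate 3 (2.38%), 8 without Pdcd1f/fLysMcre replicate 2 (2.5%) or replicate 3 (3.56%), and 23 without Pdcd1f/f replicate 1 (21.6%). Of 15 other scavenger receptors listed, 14 matched a gene of the count table (Scart1 did not) and 12 were tested, with 4 lower (3.01% over all genes) and 1 higher (2.42%). Their median log2 fold change was −0.17, beside −0.0026 over all genes. Cd163, the hemoglobin-haptoglobin receptor, fell from 4648 ± 263 to 2161 ± 51.7 normalized counts (log2 fold change −1.10 ± 0.07 SE, adjusted p = 9.0e-06). Stab1, a receptor for acetylated LDL and the matrix protein SPARC, fell from 61837 ± 8273 to 37674 ± 4549 (−0.71 ± 0.11, adjusted p = 0.0050). Scarf1, an endothelial and macrophage receptor for acetylated LDL, also fell (−0.71 ± 0.12, adjusted p = 0.0077), and so did Scarb2, a lysosomal class B relative of Cd36 (−0.27 ± 0.06, adjusted p = 0.022), which is named here after its value was seen. Cd44, the hyaluronan receptor, was higher (0.37 ± 0.06, adjusted p = 0.0082). With 1 library left out Cd163 and Stab1 passed in 6 of 6 fits. Scarf1 and Cd44 did not pass without Pdcd1f/f replicate 2 or Pdcd1f/fLysMcre replicate 1 (adjusted p up to 0.064 and 0.071), and Scarb2 passed only without Pdcd1f/f replicate 1 (otherwise up to 0.15).

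Of 14 genes of lipoprotein receptors and their regulators 13 were tested and 2 passed, both lower (3.01% over all genes), with a median of −0.21. Against the shares of all genes given above for each fit, the number lower was 6 with GC and length offsets, 7 with offsets and block, 5 with all genes of at least 1 count or with Storey q-values, and 4 with DESeq2 and Benjamini-Hochberg adjustment, where 12.2% of all genes passed. It was 5 without Pdcd1f/f replicate 1, 6 without both libraries that stood apart, and 1 without any other single library. Apoe, the ligand of several of these receptors, was at 154056 ± 30896 normalized counts in controls and 78705 ± 10301 in the deleted libraries (log2 fold change −0.97 ± 0.14 SE, adjusted p = 0.0034). Mylip, the ubiquitin ligase IDOL that degrades VLDLR, was lower as well (−0.40 ± 0.08, adjusted p = 0.021). Apoe passed in 6 of 6 fits with 1 library left out, and Mylip only without Pdcd1f/f replicate 1 (otherwise adjusted p up to 0.10).

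Of 13 genes of fatty acid binding, uptake and activation 12 were tested and 1 passed, against 5.43% of all genes, with a median of −0.02. Acsl1, which activates long-chain fatty acids to their coenzyme A esters, rose from 5975 ± 142 to 7511 ± 73.1 normalized counts (0.33 ± 0.06, adjusted p = 0.0080). It did not pass without Pdcd1f/f replicate 2 or Pdcd1f/fLysMcre replicate 1 (adjusted p up to 0.081), and no gene of the list did. Without Pdcd1f/f replicate 1, where 21.6% of all genes passed, the list had 4 genes higher and 1 lower. Fabp5, the epidermal relative of Fabp4 and its neighbour on chromosome 3, was at 23353 ± 1836 and 22254 ± 1409 (−0.07 ± 0.08, adjusted p = 0.62). Fabp4 and Fabp5 therefore lay on different sides of the threshold, and the difference between their changes was not tested.

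Of 20 partners and regulators of CD36 all were tested and 3 passed, against 5.43% of all genes, with a median of −0.10. Cd9, a tetraspanin found with CD36 in the membrane, was higher (0.28 ± 0.06, adjusted p = 0.019). The tetraspanin Cd81 was lower (−0.60 ± 0.08, adjusted p = 0.0027), and so was Rxra, the partner of the PPAR and LXR nuclear receptors (−0.42 ± 0.09, adjusted p = 0.031). With 1 library left out Cd81 passed in 6 of 6 fits. Cd9 passed only without Pdcd1f/f replicate 1 or Pdcd1f/fLysMcre replicate 2 (otherwise adjusted p up to 0.13), and Rxra only without Pdcd1f/f replicate 1 or Pdcd1f/fLysMcre replicate 3 (otherwise up to 0.15). The list had 8 calls, 2 of them higher, without Pdcd1f/f replicate 1 (21.6% of all genes) and 8 calls, 3 of them higher, with GC and length offsets (18.7%). It had 1 call without Pdcd1f/f replicate 2 (1.51%), Pdcd1f/f replicate 3 (2.38%) or Pdcd1f/fLysMcre replicate 1 (1.51%). Pparg, a nuclear receptor that activates Cd36 and Fabp4 in macrophages, was at 307 ± 25.7 and 267 ± 25.9 normalized counts and did not pass (−0.20 ± 0.12, adjusted p = 0.34). Nfe2l2, the gene of NRF2 and another known activator of Cd36, did not pass either (0.16 ± 0.06, adjusted p = 0.14).

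**Figure D5:**
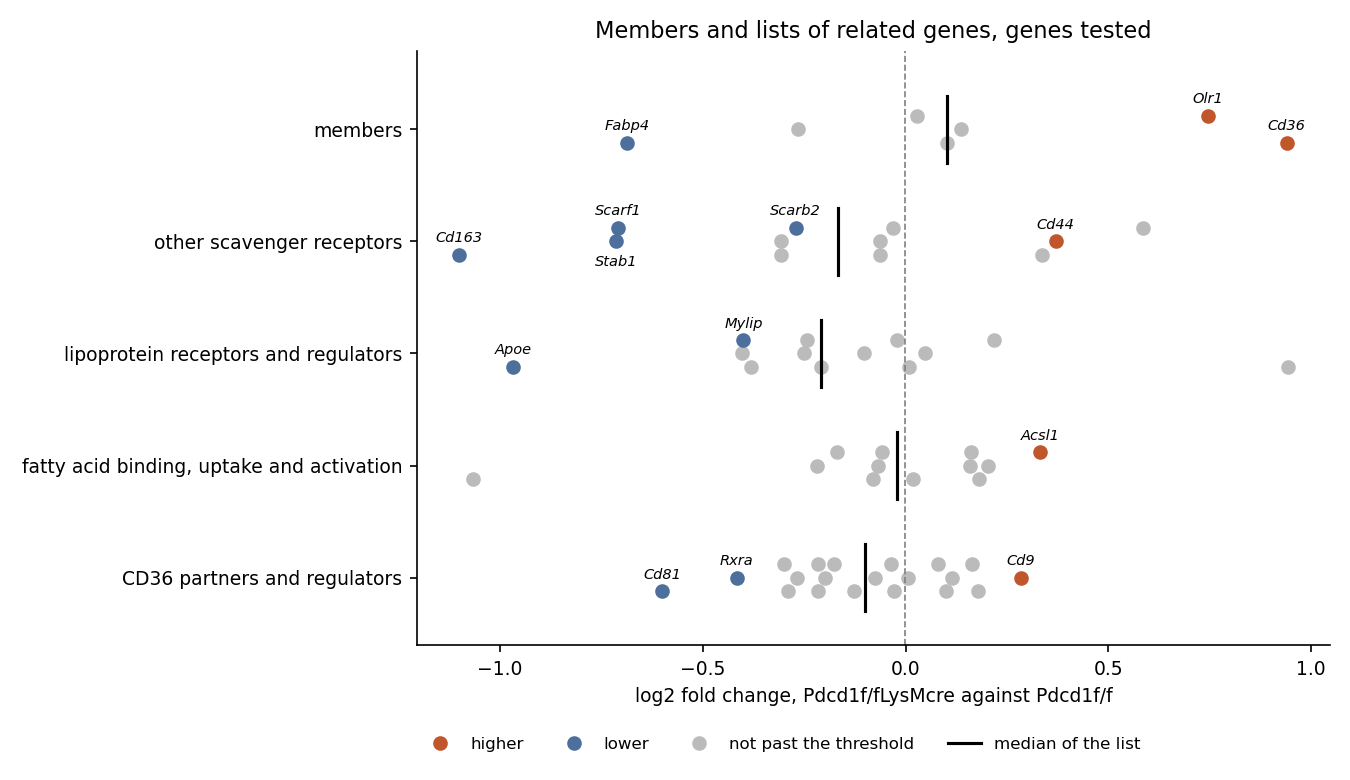
Log2 fold change of every gene tested among the members and the 4 related lists, with genes past an adjusted p of 0.05 coloured and named; black lines are list medians and the dashed line is the median of all genes. Cd36 (0.94) and Olr1 (0.75) have the highest values of the genes past the threshold, and Cd163 (−1.10) the lowest.

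Within 500 kb of Cd36 only Gnat3 (0.50 ± 0.32, adjusted p = 0.36) and Sema3c (0.21 ± 0.19, adjusted p = 0.54) were expressed highly enough to test. Olr1 lies in a cluster of C-type lectin genes, where 14 neighbours were tested and 2 passed, against 5.43% of all genes. Clec7a, the beta-glucan receptor dectin-1 on the same strand 12.5 kb away, was higher (0.40 ± 0.08, adjusted p = 0.023), and Gabarapl1, an autophagy gene 26.0 kb away, was lower (−0.28 ± 0.06, adjusted p = 0.034). Both were named after their values were seen. With 1 library left out Clec7a passed in 2 of 6 fits (without Pdcd1f/f replicate 1 or Pdcd1f/fLysMcre replicate 3, otherwise adjusted p up to 0.13) and Gabarapl1 in 1 (without Pdcd1f/f replicate 1, otherwise up to 0.21).

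The 5 genes whose log2 CPM followed that of Cd36 most closely over the 6 libraries, among 10601 genes with a mean of at least 100 normalized counts, were Ceacam1, Eaf1, Il1rn, Cdk17 and Prkar2a, with Pearson's r between 0.997 and 0.999. The 6 libraries share the genotype difference and their depth, so this is a description. Ceacam1 had 391, 375 and 388 normalized counts in the control libraries and 587, 615 and 538 in TAMs with the deletion. Like Cd36, it was highest in Pdcd1f/fLysMcre replicate 2 and, among the deleted libraries, lowest in replicate 3. Il1rn, the gene of the interleukin-1 receptor antagonist, had a log2 fold change of 0.65, and Eaf1, Cdk17 and Prkar2a had 0.22, 0.30 and 0.23.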

How the data were processed

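The authors removed adapters with Cutadapt 2.5, aligned paired-end reads of stranded polyA libraries to GRCm38 with STAR 2.7.3a and counted reads per Ensembl gene with featureCounts (Subread 1.6.2). They deposited raw counts, and a normalized signal table in which the counts are divided by 1 size factor per library (0.895 to 1.08). Whether counting used strand is not given in the sources used here. The methods describe the sorting of TAMs, as live CD45+ CD11b+ F4/80+ Ly6G- cells, for the Shp2f/f and Shp2f/fLysMCre mice.

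Raw counts were tested with edgeR 4.0.16 (filterByExpr with a minimum count of 10, TMM, robust glmQLFit, two-sided glmQLFTest) and Benjamini-Hochberg adjustment over 14469 genes, with a threshold of 0.05. DESeq2 1.42.0, limma 3.58.1, other scalings and filters, GC and length offsets, a replicate block and libraries left out were alternatives. The scripts were tested on simulated data. RPKM used exon lengths of GENCODE M21, and 3 counts correspond to 0.0584 to 0.0717 CPM. Ratios used counts plus 0.5. The members, the lists and the rules for genes named (all members; per list up to 4 genes past the threshold by adjusted p; the 5 genes most like Cd36; the genes that check the labels) were chosen with earlier results of these data known. Beyond these and the marker genes of other cell types, Fabp5, Pparg, Nfe2l2, Scarb2, Clec7a, Gabarapl1, Gnat3 and Sema3c were named outside the rule, after their values were seen. A gene of 1 list is not reported here.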

Additional observations from a re-analysis of the deposited data

How the results depend on the processing

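Over 18 alternatives each, Cd36 (log2 fold change 0.84 to 1.02) and Olr1 (0.67 to 0.80) were past the threshold in all 18, Fabp4 in 15, Scarb1 in 5 and Msr1 in 1, and Cd5l and Vldlr in none (lowest adjusted p 0.54 and 0.34). With all genes of at least 1 count 1951 genes passed instead of 786, with DESeq2 1524 (Benjamini-Hochberg) or 1919 (Storey q-values), with GC and length offsets 2711, and with these offsets and the block 2845. Leaving out 1 library gave 222 to 3181 genes, 2 to 4 members past the threshold, 2 members higher in each case, and 6 to 7 ratios without overlap. Without Pdcd1f/f replicate 1 and Pdcd1f/fLysMcre replicate 2 together, 3757 genes and 5 members passed, 3 of them higher. Why these counts moved was not tested. Vldlr turned to −0.040 with the offsets and to −0.029 with offsets and block, and ranged from −0.084 to 0.24 with 1 library left out. The labels do not say whether replicate numbers pair the libraries. Correlations of same-numbered deviations were −0.013, −0.097 and 0.22, too few values to decide it. With the replicate block 1027 genes and 3 members passed, 2 of them higher, and Cd36 was at 0.93. Depth limits Marco, Pdcd1 and Cd5l, which had fewer than 50 counts per library.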
